A study of Mus musculus with 12 samples.

Results

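Heat shock proteins and chaperones are described here through 10 genes of the cytosolic, endoplasmic reticulum (ER) and mitochondrial folding machinery, chosen by name from a table of 35999 genes. They are Hspa8, Hspa1a, Hspa1b, Dnaja1, Dnajb1, Hsp90aa1, Hsp90ab1, Hspa5, Hspd1 and Hspe1. All 10 were in the table and all 10 passed the filter on low values (a signal averaging 10 or more), as did 8887 genes in all. RNA was sequenced from LSK cells, the bone marrow fraction lacking lineage markers and positive for Sca-1 and KIT that contains hematopoietic stem cells and multipotent progenitors. There were 12 libraries, 6 from mice labelled WT and 6 from mice labelled FancgKO (Fancg-/-, called KO), which carry the mutation in every cell, and the labels give no treatment and no age. Fancg is a core gene of the Fanconi anemia pathway, which repairs DNA interstrand crosslinks. Signal is the deposited normalized value, a read count estimate scaled by 1 factor per library as far as its name and values show. The question addressed is whether chaperone transcripts differ between WT and KO LSK cells, and how far they vary among mice of the same genotype.

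Chaperones bind unfolded or partly folded proteins and help them reach or regain their shape. HSP70 proteins work in cycles that J-domain proteins start and nucleotide exchange factors end, HSP90 proteins act later on a narrower set of clients such as kinases and steroid receptors, and the mitochondrial HSP60 and HSP10 proteins form a closed folding chamber. Some of these genes are active in every cell, while others, above all the HSP70 genes Hspa1a and Hspa1b, are switched on by heat shock factor HSF1 when unfolded protein accumulates in the cytosol. Unfolded protein in the ER activates other factors, among them ATF6 and XBP1, which act on ER chaperone genes such as Hspa5. Hematopoietic stem cells are known to keep protein synthesis low and to be sensitive to unfolded protein.

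The DNA elements that HSF1 and ATF6 read were searched in the promoters of the members, and a stretch is shown for each member in which letters matched. A match is a description of the sequence and does not show that a factor binds there. Sequences are promoter windows from RefSeq, GRCm38.p6, running from 250 bases before to 50 bases after each transcript start, and 7 of the 10 members had at least 1 window. Both strands were searched. The 3-unit heat shock element was searched as the letters GAA, TTC and GAA, or TTC, GAA and TTC, with any 2 bases between units, and 0.603% of all 32851 windows held it. The 2-unit form, GAANNTTC or TTCNNGAA, lies inside the 3-unit form and was held by 15.1% of windows. The ER stress element, a CCAAT box and a CCACG box separated by 9 bases, was held by 0.119% of windows. Stretches of at most 30 bases are printed 5′ to 3′ on the strand of the gene, with the matched letters in capitals.
Hspe1: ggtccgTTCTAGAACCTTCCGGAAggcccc
Hspa1a: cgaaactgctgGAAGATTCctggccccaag
Hspa1b: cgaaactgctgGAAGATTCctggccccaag
Dnaja1: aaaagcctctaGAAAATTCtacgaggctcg
Hspa5: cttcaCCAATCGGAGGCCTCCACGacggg
The Hspe1 stretch, chr1:55088053-55088082 on the plus strand, held 2 overlapping matches of the 3-unit element, from 89 and 84 bases before the start. This stretch also lay in the window of Hspd1. These genes stand head to head on opposite strands of chromosome 1, and their windows shared 285 bases. The stretches of Hspa1a, chr17:34972242-34972271, and Hspa1b, chr17:34959324-34959353, both on the minus strand, held the same letters at the same distance of 104 bases before the start, and their windows were identical at 296 of 300 positions. Dnaja1, chr4:40722333-40722362 on the plus strand, held the 2-unit form 124 bases before the start in 1 of 3 windows. Hspa5, chr2:34772020-34772048 on the plus strand, held the ER stress element 65 bases before the start and neither form of the heat shock element. In the windows of Dnajb1, none of the letters of the heat shock or ER stress elements were matched.

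The depth was known only approximately, at between 1235109 and 2471417 reads per library. Fancg had a signal of 10.3 ± 6.96 (SD, n = 6) in WT and 8.53 ± 4.18 (SD, n = 6) in KO (two-sided exact permutation test, p = 0.636), so its level did not separate the labels. Kit, between 283 and 435, and Cd34, between 528 and 728, were present in all 12 libraries, and Ly6a, which encodes Sca-1, was low at 4.84 to 17.4. Of 12 granulocyte and monocyte markers, 7 (S100a8, S100a9, Ltf, Camp, Ngp, Lcn2 and Ly6g) were listed at 0 in 7 to 12 libraries and did not exceed 4.21. The other 5 were present in all 12 libraries, with Mpo from 255 to 1650, Elane from 6.02 to 270, Lyz2 from 56.5 to 111, Csf1r from 11.8 to 70.3 and Itgam from 7.87 to 42.2. The summed signal of this list ran from 379 to 1910 in WT and from 473 to 2079 in KO, and its part in the levels of the members was not tested. Libraries with replicate numbers 5, 6 and 7 stood apart from those numbered 2, 3 and 4 in immediate-early genes, which cells induce within minutes of a stimulus. Of 24 such genes, 14 had every value of replicates 5 to 7 above every value of replicates 2 to 4, in both genotypes together. The division was made after the values were seen, and the share of all genes that separated in this way was not computed. Fos, a subunit of the AP-1 transcription factor, had a signal of 12.3 to 40.7 in replicates 2 to 4 and of 229 to 378 in replicates 5 to 7. Of the 18 immediate-early genes tested, 0 had an unadjusted limma p under 0.05 between the genotypes. The labels do not say what the numbers stand for.

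None of the 10 chaperones passed the test for a difference between WT and KO LSK cells. The count of members with an unadjusted limma p under 0.05 was 0 of 10, against 3.67% of the 8887 genes tested (1.98% higher and 1.69% lower in KO). The adjusted p was above 0.99 for each member, and of all genes tested 0% had an adjusted p under 0.05. The lowest exact permutation p of a member was 0.212. These tests, and the intervals given below by gene unless stated, did not take the replicate number into account. The signal of WT and KO overlapped for all 10 members, and groups did not overlap for 0.09% of genes. The fold change was above 0 for 3 members and below 0 for 7, while 50.7% of all genes tested were above 0. Its median on the log2 scale was -0.07, beside 0.00 over all genes tested. The summed signal of the 10 members was 2396 ± 499 (SD, n = 6) in WT and 2283 ± 464 (SD, n = 6) in KO. In bulk samples of this kind, fewer cells with a transcript and less of it per cell cannot be told apart.

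**Figure D1:**
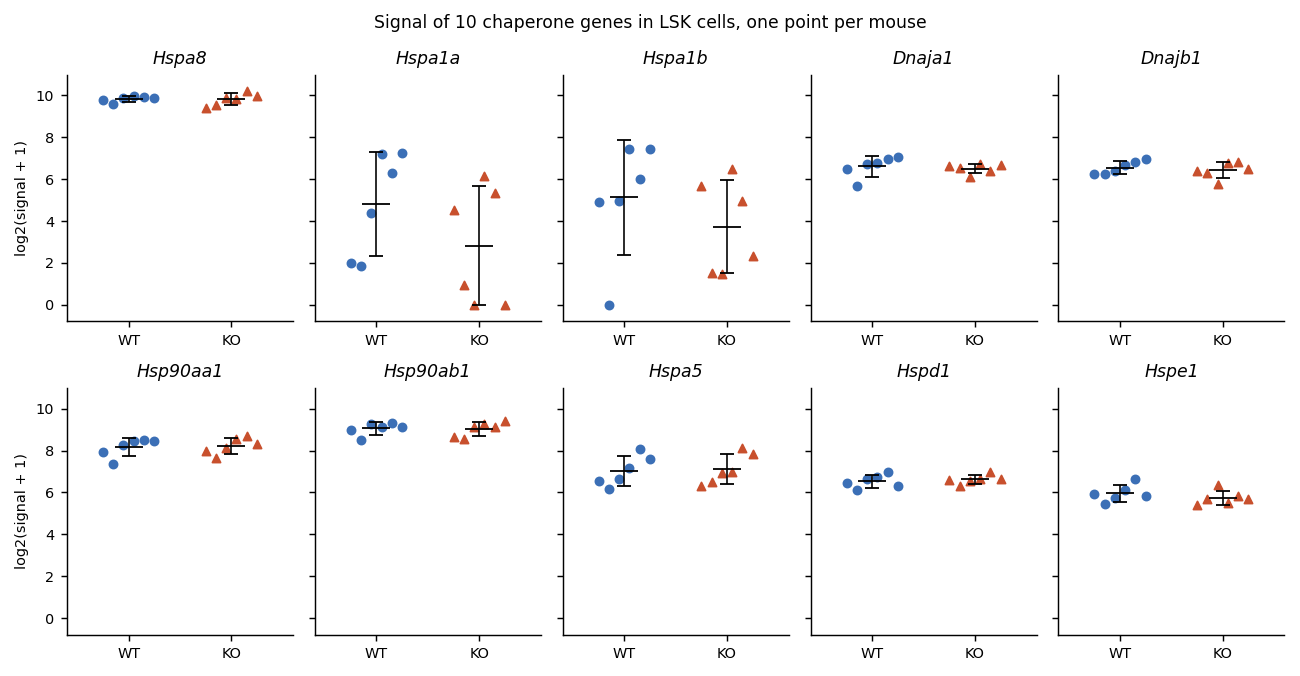
Signal of the 10 chaperone genes on the log2(signal + 1) scale, with 1 point per library (6 WT circles, 6 KO triangles, each ordered by replicate number from left to right), and a bar for the mean ± SD. Hspa8 lies near the top of the scale with little spread, and Hspa1a and Hspa1b cover most of the scale in both genotypes.

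The members spanned a wide range of levels, compared here as signal per kilobase of the longest coding transcript. Hspa8, the constitutive cytosolic HSP70, was highest with a median of 391 per kilobase over the 12 libraries, followed by Hsp90ab1, the constitutive HSP90, with 223. Hsp90aa1, the stress-responsive HSP90, had 96.7 and Hspe1, the mitochondrial HSP10, had 69.7. Hspd1, the mitochondrial HSP60, had 39.6, Hspa5 33.3, Dnajb1 28.3 and Dnaja1 17.6. The stress-induced Hspa1b and Hspa1a came last with 10.7 and 6.97. Hspa8 was above Hsp90ab1 in 12 of 12 libraries, as were Hsp90ab1 above Hsp90aa1, Hspe1 above Hspd1 and Dnajb1 above Dnaja1. The remaining neighbours in this order changed places between libraries. Hsp90aa1 was above Hspe1 in 7, Hspd1 above Hspa5 in 8, Hspa5 above Dnajb1 in 7, Dnaja1 above Hspa1b in 7 and Hspa1b above Hspa1a in 9 of 12 libraries. The orders of Hspe1 above Hspd1 and of Dnajb1 above Dnaja1 rest on the lengths used, 774 and 2423 bases and 2996 and 5622 bases. Before division by length, the mean signal was 58.4 for Hspe1 and 96.0 for Hspd1, and 90.9 for Dnajb1 and 96.0 for Dnaja1. Which transcripts the cells express was not tested. Reads from near-identical copies may also have been divided between genes, which would move these levels.

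Hspa8 lies on chromosome 9 from 40800984 to 40810087 (GRCm38, plus strand) and folds new proteins in the cytosol and strips clathrin from vesicles. Its signal in WT ran from 764 to 1007 with a median of 936, and in KO from 686 to 1189 with a median of 929. The WT range lay within the KO range, and KO replicate 6 was the highest library. The log2 fold change, KO against WT, was -0.02 (95% interval -0.35 to 0.30, exact permutation p = 0.846). Its spread within genotypes, an SD of 0.23 on the log2 scale, was smaller than the 0.32 that the limma trend gave for genes at that level.

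The values of the HSP90 genes also overlapped between genotypes. Hsp90aa1 (chromosome 12, 110690605 to 110702728, minus strand) had a signal of 164 to 365 in WT, with a median of 333, and of 201 to 413 in KO, with a median of 300.4. Replicate 3 was the lowest library in each genotype, and replicate 6 the highest. The log2 fold change was 0.05 (95% interval -0.41 to 0.52, exact permutation p = 0.829). Hsp90ab1 (chromosome 17, 45567775 to 45573271, minus strand) had 359 to 645 in WT, with a median of 562, and 373 to 671 in KO, with a median of 558. Again replicate 3 was the lowest in each genotype. Its log2 fold change was -0.04 (95% interval -0.43 to 0.35, exact permutation p = 0.851). Both intervals exclude a change by 1 on the log2 scale in either direction.

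Hspa1a and Hspa1b encode the same stress-induced cytosolic HSP70 protein or nearly so, from single-exon genes that lie 9951 bases apart on chromosome 17 (Hspa1a 34969190 to 34972156, Hspa1b 34956436 to 34959238, both minus strand). Their levels varied far more between mice than those of any other member. In WT replicates 2 to 7, Hspa1a had a signal of 2.96, 2.61, 19.6, 146, 78.3 and 153. In KO replicates 2 to 7 it had 21.8, 0.914, 0, 71.0, 39.9 and 0. High and low libraries thus occurred in both genotypes, with the 3 highest values in WT replicates 5, 6 and 7, and the gene was listed at 0 in KO replicates 4 and 7. The log2 fold change had a 95% interval of -4.66 to 0.65 around a value of -2.001 (limma p = 0.129 before adjustment, exact permutation p = 0.212). The interval holds 0 as well as a large decrease. The value depended on the pseudocount, at -2.34 with 0.5 and -1.30 with 5.

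Hspa1b followed Hspa1a from library to library. Its signal was 29.3, 0, 30.1, 171, 63.0 and 175 in WT replicates 2 to 7, and 49.6, 1.87, 1.80, 87.5, 29.6 and 3.94 in KO replicates 2 to 7. It was listed at 0 in WT replicate 3, and replicate 5 of both genotypes and WT replicate 7 held the highest values. The log2 fold change was -1.40 (95% interval -3.88 to 1.09, exact permutation p = 0.366). Leaving out 1 library at a time, in 12 fits, gave Hspa1b -2.42 to -0.93, with unadjusted limma p of 0.0166 to 0.451. The lowest p, without WT replicate 3, went with -2.42 and an adjusted p of 0.999. For Hspa1a these 12 fits gave -2.67 to -1.44, with unadjusted limma p of 0.0465 to 0.273. The lowest p, without KO replicate 5, went with -2.67 and an adjusted p of 0.999. For each gene, only 1 of the 12 fits had an unadjusted p under 0.05. Of the 31-base stretches in its transcripts, Hspa1a shared 63.8% with Hspa1b, so their reads cannot be fully assigned, and the sum is given too. The summed signal ran from 2.61 to 328 in WT, with a median of 95.5, and from 1.80 to 158 in KO, with a median of 36.8.

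The log2 fold changes of Hspa1a and Hspa1b were farther from 0 among the libraries that were high in immediate-early genes, a division made after the values were seen. In replicates 5 to 7, the 3 WT values of Hspa1a lay between 78.3 and 153 and the 3 KO values between 0 and 71.0, a log2 fold change of -3.09. In replicates 2 to 4 it was -0.92. The corresponding values for Hspa1b were -2.39 and -0.41. Whether these differences between the sets of replicates exceed the spread between mice was not tested. KO replicate 7, with Hspa1a listed at 0, had a Fos signal of 229, and KO replicate 2, with an Hspa1a signal of 21.8, had the lowest Fos signal of 12.3. The part of the immediate-early state in the Hspa1 levels was not tested.

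The J-domain partners of HSP70 spanned a narrower range. Dnaja1 (chromosome 4, 40722150 to 40737149, plus strand), which delivers clients to Hspa8, had 49.8 to 132 in WT, with a median of 107, and 67.1 to 104 in KO, with a median of 94.2. The log2 fold change was -0.11 (95% interval -0.56 to 0.34, exact permutation p = 0.658). Dnajb1 (chromosome 8, 83608193 to 83612653, plus strand), the stress-induced J-domain protein that helps HSP70 dissolve aggregates, had 73.9 to 126 in WT, with a median of 91.2, and 53.5 to 111 in KO, with a median of 84.7. KO replicate 4, the lowest library for Dnajb1, was also the lowest for Dnaja1 in KO and had Hspa1a listed at 0. Its log2 fold change was -0.14 (95% interval -0.55 to 0.28, exact permutation p = 0.539).

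Hspa5 (chromosome 2, 34771970 to 34777547, plus strand) encodes BiP, the HSP70 of the ER lumen and the sensor-bound regulator of the unfolded protein response. Its signal in WT replicates 2 to 7 was 92.1, 70.0, 98.8, 144, 269 and 191, and in KO replicates 2 to 7 it was 78.6, 88.9, 120.2, 124, 280.1 and 230.5. Replicates 6 and 7 were the highest libraries in each genotype, and the values of the genotypes overlapped. The log2 fold change was 0.08 (95% interval -0.66 to 0.83, exact permutation p = 0.825). With the replicate number as a block in limma, the 95% interval was -0.19 to 0.36. Hsp90b1, the HSP90 of the ER, also had its highest signal in replicate 6 of each genotype, 258 in WT and 322 in KO. Elane and Mpo, granule proteins of early myeloid cells, were highest in the same libraries, with Mpo at 1513 in WT and 1650 in KO. Other markers of that list did not all follow. Csf1r and Itgam peaked in replicates 2 to 4, at 70.3 and 42.2, against at most 34.2 and 35.2 in replicates 5 to 7. Lyz2 reached 97.6 in replicates 2 to 4 and 111 in replicates 5 to 7. The part of cell composition in the Hspa5 level was not tested.

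The replicate number was then tested over all genes with a limma F test that had the genotype in the model, a test added after the values were seen. Hspa5 had an adjusted p of 0.00524, rank 42 of 8887 genes, and was the only member of 10 with an adjusted p under 0.05, beside 1.7% of all genes. Hsp90aa1 had an adjusted p of 0.0513. An unadjusted limma p under 0.05 was found for 4 of 10 members, namely Hspa5, Hsp90aa1, Hsp90ab1 and Hspa1b, and for 14.3% of all genes, and Hspa1a had an unadjusted limma p of 0.0547.

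The mitochondrial chaperonin genes Hspd1 (chromosome 1, 55077835 to 55088243, minus strand) and Hspe1 (chromosome 1, 55088132 to 55091307, plus strand) overlap by 112 bases in the annotation. The files do not say whether strand was used, so reads in the overlap may be shared. Hspd1 had 67.6 to 126 in WT, with a median of 92.1, and 77.3 to 126 in KO, with a median of 96.8. Its log2 fold change was 0.09 (95% interval -0.26 to 0.44, exact permutation p = 0.580). Hspe1 had 43.1 to 99.7 in WT, with a median of 58.0, and 40.7 to 81.2 in KO, with a median of 50.5. WT replicate 6 and KO replicate 4 were its highest libraries, and the genotypes overlapped. Its log2 fold change was -0.21 (95% interval -0.65 to 0.23, exact permutation p = 0.357).

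**Figure D2:**
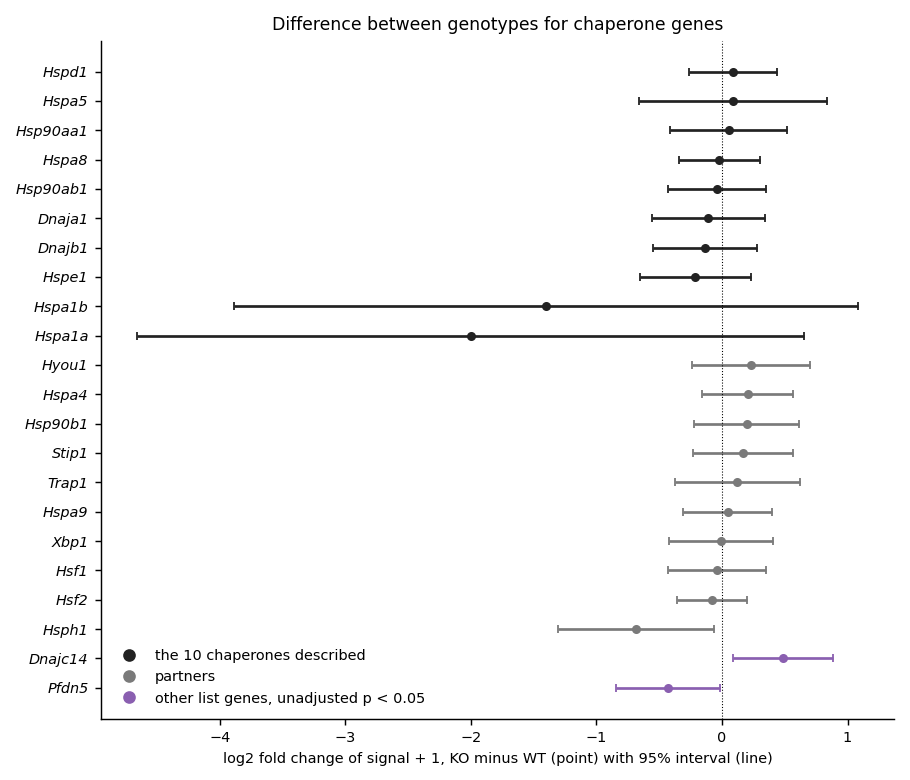
Log2 fold change of signal + 1, KO minus WT, with its 95% limma interval, for the 10 chaperones (black), partner genes (grey) and other chaperone-list genes with an unadjusted p under 0.05 (purple). The intervals of the 10 chaperones all cross 0, and those of Hspa1a and Hspa1b are the widest.

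The members differed widely in their spread between mice of the same genotype. This spread includes any difference between replicate numbers, for which Hspa5 had an adjusted p of 0.00524 in the limma F test. For Hspa1a the SD within genotypes on the log2(signal + 1) scale was 2.66, which was 5.05 times the value of the limma trend for genes at its level, and the SD of Hspa1b was 5.76 times the trend. The SD of Hspa5 was 0.73, or 2.43 times the trend. These 3 members lay above the 95th percentile of this ratio over the 8887 genes tested, which was 2.08, and the median gene had 1.03. A larger ratio than that of Hspa1b was found for 0.158% of genes, than that of Hspa1a for 0.270% and than that of Hspa5 for 2.93%. The other 7 members had ratios from 0.705 for Hspa8 to 1.42 for Hsp90aa1. In these libraries 1 read was worth a signal of 0.677 to 1.61, so the lowest values of Hspa1a and Hspa1b rest on a few reads at most.

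**Figure D3:**
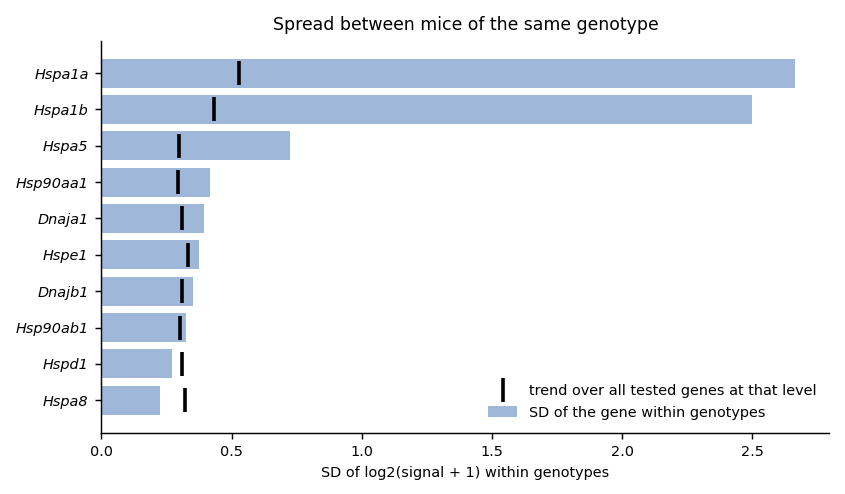
SD of log2(signal + 1) within genotypes for each chaperone gene (bars, 6 WT and 6 KO libraries), and the limma trend of this SD over all tested genes at the same level (black ticks). Hspa1a, Hspa1b and Hspa5 exceed their ticks by more than 2 times, and Hspa8 and Hspd1 lie below theirs.

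Members that are known to work together or that share a locus were compared library by library, in 6 pairs with Benjamini-Hochberg adjustment over these. The values were deviations from the genotype means over the 12 libraries. The permutations exchanged all 12 libraries freely, as if they were independent. Where genes vary with the replicate number, as Hspa5 did, the permutation p can therefore be too small. Hspa1a and Hspa1b varied together, with a Pearson r of 0.877 (permutation test, adjusted p = 0.0006) and a Spearman rho of 0.904 (adjusted p = 0.0009). Without the 2 libraries farthest from the median r was 0.961, and it was 0.770 within replicates 2 to 4 and 0.949 within replicates 5 to 7. The part of shared reads in this relation was not tested. Dnajb1 and Hspa1b, which are not alike in sequence, had an r of 0.702 (permutation test, adjusted p = 0.0161) and a rho of 0.783 (adjusted p = 0.0078). Here r was 0.652 without the 2 farthest libraries, and 0.418 and 0.609 within the sets of replicates. Hspa5 and Hsp90b1 had an r of 0.821 (permutation test, adjusted p = 0.0009) and a rho of 0.804 (adjusted p = 0.0070), with 0.657 without replicate 6 of either genotype, and 0.720 and 0.697 within the sets.

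Each remaining pair missed an adjusted p of 0.05 or had an r below 0 within a set of replicates. Values of r within a set rest on 6 libraries each and on deviations from genotype means over all 12. They were not tested and can hold a genotype difference particular to that set. Hsp90aa1 and Hsp90ab1 had an r of 0.854 (permutation test, adjusted p = 0.0014) and a rho of 0.671 (adjusted p = 0.0309), and without replicate 3 of either genotype r was 0.600. Within replicates 2 to 4 it was 0.911, but within replicates 5 to 7 it was -0.62, so the pooled relation did not hold within both sets. Hspd1 and Hspe1 had an r of 0.576 (permutation test, adjusted p = 0.0579) and a rho of 0.490 (adjusted p = 0.131), and r was 0.113 without WT replicates 3 and 6. Within the sets it was 0.314 and 0.775. Hspa8 and Dnaja1 had an r of 0.265 (permutation test, adjusted p = 0.397) and a rho of 0.203 (adjusted p = 0.525), with 0.587 without KO replicates 2 and 6, and -0.01 and -0.88 within the sets.

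**Figure D4:**
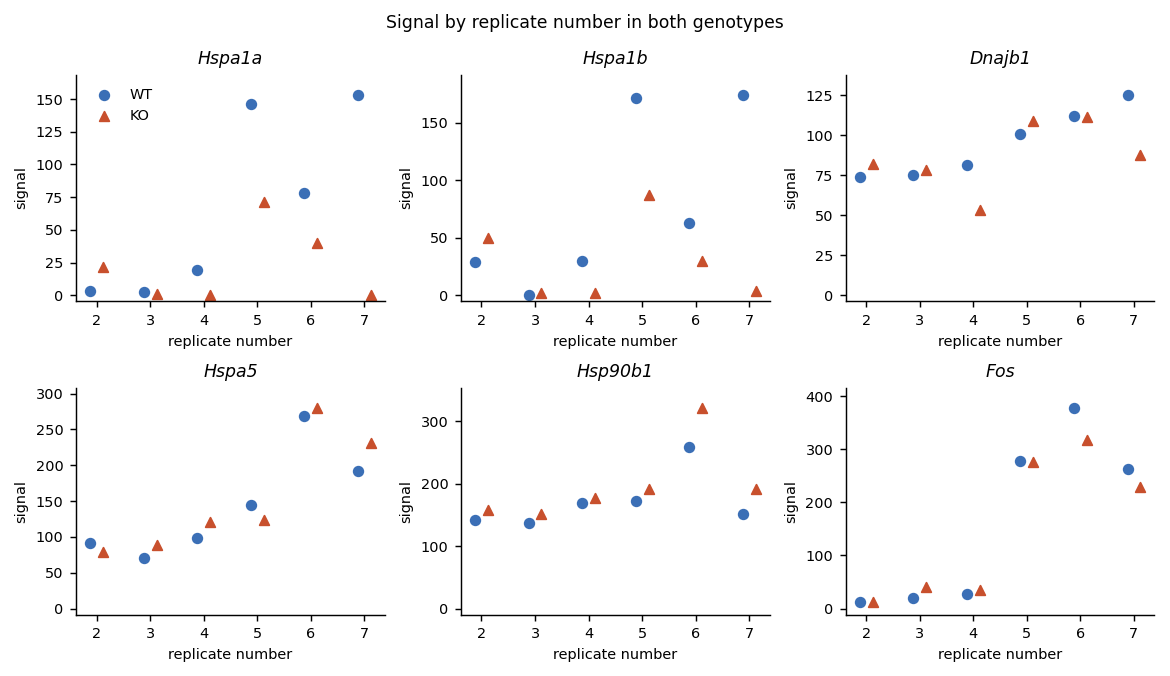
Signal of the cytosolic chaperone genes Hspa1a, Hspa1b and Dnajb1, the ER chaperone genes Hspa5 and Hsp90b1, and the immediate-early gene Fos, against the replicate number in the library titles, for WT (circles) and KO (triangles). Fos is at 229 or above in replicates 5 to 7 of both genotypes and at 40.7 or under in the others, Hspa5 is highest in replicates 6 and 7 of both, and Hspa1a and Hspa1b are high in all WT but not all KO libraries of replicates 5 to 7.

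The wider folding machinery is described from lists of chaperone families. Of 137 genes listed, 136 were in the table and 103 were tested. The fold change was above 0 for 48, or 46.6%, beside 50.7% of all genes tested. It was below 0 for 55, with a median of -0.01 on the log2 scale. An unadjusted limma p under 0.05 was found for 3 of them, or 2.91%, beside 3.67% of all genes, and an adjusted p under 0.05 for 0. Dnajc14, a J-domain protein of the ER membrane, was higher in KO, with 49.3 to 84.3 in WT and 69.5 to 135 in KO, or 0.49 on the log2 scale (exact permutation p = 0.028). Hsph1, the HSP110 that exchanges nucleotide on HSP70, had 17.8 to 32.8 in WT and 8.03 to 25.4 in KO, or -0.68 on the log2 scale (exact permutation p = 0.056). Pfdn5, a prefoldin subunit that hands actin and tubulin to the CCT chaperonin, had 22.7 to 44.2 in WT and 18.4 to 30.8 in KO, or -0.43 on the log2 scale (exact permutation p = 0.028). All 3 had an adjusted limma p above 0.99, and the genotypes overlapped for each.

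By family, J-domain proteins had 11 of 28 tested genes higher in KO and a median log2 fold change of -0.06. The HSP90 cochaperones with their HSP90 proteins had 11 of 16 higher and a median of 0.05. The CCT chaperonin and prefoldin genes had 3 of 13 higher and a median of -0.05, mitochondrial chaperones and proteases 8 of 11 and 0.09, and ER chaperones and folding enzymes 8 of 19 and -0.05. Cytosolic HSP70 and HSP110 genes had 3 of 8 and -0.04, and nucleotide exchange factors and HSP70 adaptors 5 of 9 and 0.10. Heat shock factors and HSF1 partners had 0 of 3 and -0.08, and unfolded protein response factors 3 of 5 and 0.01. Of all genes tested, 50.7% were higher in KO, and whether any family departs from that share was not tested. None of the 10 small heat shock protein genes passed the filter, and the highest mean signal among them was 5.24. Of the partners, Hsp90b1 had a log2 fold change of 0.20, Hyou1, an ER nucleotide exchange factor, 0.23, and the mitochondrial Hspa9 and Trap1 0.04 and 0.12. Hspa4 had 0.20 and Stip1, which links HSP70 to HSP90, 0.17. The transcription factors Hsf1, Hsf2 and Xbp1 had -0.04, -0.08 and -0.00. Bag3, an HSF1 target that exchanges nucleotide on HSP70, fell below the filter with a median of 5.64 in WT and 6.32 in KO (exact permutation p = 0.656).

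Reads of several members can also come from near-identical copies. Of the 31-base stretches of its transcripts, Hspa1a shared 70.1% with other genes of the annotation and Hspa1b 68.1%, most of them with each other. Hsp90aa1 shared 51.5%, Hspd1 50.1%, Hspa8 44.8%, Hspe1 24.8%, Dnaja1 22.6% and Hsp90ab1 13.2%. For Hspa5 the share was 0.0467% and for Dnajb1 0.444%. The levels of the other members are therefore less certain than those of Hspa5 and Dnajb1. How the reads were divided is not given in the sources used here.

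The genes whose levels went most closely with the summed signal of the 10 members were Hist2h2aa2, a histone H2A gene, with a Pearson r of 0.948, Serbp1, an mRNA-binding protein, with 0.947, and Eprs, a tRNA synthetase, with 0.939. They were ranked among 8877 genes by r over deviations from the genotype means in 12 libraries, which also share depth and normalization. Hist2h2aa2 was itself listed at 0 in 2 libraries, replicate 3 of each genotype, and at 2.17e-07 in KO replicate 2. Its adjusted p in the limma F test of the replicate number was 0.00381, and the part of the replicate number in these values of r was not tested.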

How the data were processed

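RNA-seq libraries of LSK cells from 6 WT and 6 KO mice were analysed. The authors deposited 1 table of normalized signal per gene and library, and from its name and values the signal was taken as an estimated count divided by a size factor. Kallisto is named in the submitters' processing notes, while the mouse genome build and annotation are not given in the sources used here. All 12 columns were matched to libraries by title, with 0 columns unused. Tests ran on log2(signal + 1) for the 8887 of 35999 genes whose signal averaged 10 or more, so fold changes are on this scale and depend on the pseudocount for low genes.

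The whole table was fitted with limma 3.58.1 in R 4.3.3 (empirical Bayes moderation with a trend, two-sided tests, adjustment by Benjamini-Hochberg), without a block. Exact permutation tests used all 924 splits, so the smallest p they can give is 0.0022, and correlations used 100000 permutations. Single-count steps gave whole reads for only 12.6 to 13.3% of values within 0.01, so count tests were not used. Replicates are separate mice per the study's methods. The fit was tested on simulated data with independent normal errors. These held no effect of the replicate number, so that test does not cover such an effect.

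The members and lists were chosen with earlier results of these data known. Named genes were the members, fixed partners, list genes with an unadjusted p under 0.05, Fancg and the 3 genes most like the summed members. Positions come from GENCODE M21 (GRCm38), where all 35999 names matched, and promoters from RefSeq. Alternatives were other pseudocounts, filters, scalings, no trend, the replicate block, leaving out libraries and summing Hspa1a with Hspa1b. The split by replicates 2 to 4 and 5 to 7 and the test of the replicate number were added after the values were seen.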

Additional observations from a re-analysis of the deposited data

Results flagged for a closer look

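Among 54 groups of 6 libraries examined over the named genes, 7 held a library farther from the others than Dixon's 95% critical value allows, where chance gives about 1 in 20, or 2.7. In KO replicate 4 the signal of Hspe1 was 81.2, while the remaining KO libraries lay between 40.7 and 55.7. Hsp90b1 was high in replicate 6 of both genotypes, with 258 in WT (others 137 to 172) and 322 in KO (others 152 to 192). Xbp1, the factor of the unfolded protein response, had 59.0 in KO replicate 6, against 26.1 to 36.7. Bag3 had 20.5 in WT replicate 2, against 1.25 to 6.77. Hsf2 was low in WT replicate 7 with 456, against 552 to 598, and Fancg was high in the same library with 24.1, against 4.76 to 9.40.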

How the results depend on the processing

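Of 241 log2 fold changes of members under other settings, 212 kept their direction and side of the threshold, 24 changed sign and 5 passed an unadjusted limma p of 0.05, and the lowest adjusted p of any member was 0.889. Genes with an unadjusted p under 0.05 numbered 326, 836 without a filter and 91 with a mean signal of at least 50, where Hspa1a has no value. Leaving out 1 library gave 275 to 383 genes and 0 to 1 members. It moved the log2 fold change of Hsp90aa1 between -0.11 and 0.17, of Hsp90ab1 between -0.15 and 0.055, of Hspa8 between -0.10 and 0.055, of Hspa5 between -0.12 and 0.29, of Hspd1 between -0.0012 and 0.18, of Hspa1a between -2.67 and -1.44 and of Hspa1b between -2.42 and -0.93. Hspa8 had 0.064 with quantile normalization and 0.016 with equal totals. Without WT replicate 3 and KO replicate 7, both low in Y-linked transcripts, 1 member passed (Hspa1b, -2.14), and Hsp90aa1 had -0.13, Hspa5 -0.24 and Hspd1 -0.0089. Only replicates 2 to 4 gave Dnaja1 0.12 and Hspe1 0.11. Only replicates 5 to 7 gave 2 members (Hspa1a and Hspa1b), Hsp90ab1 0.06, Hspa8 0.084 and 1 gene with an adjusted p under 0.05. That division was made after the values were seen. Over the 13 settings other than leaving out 1 library, 0 to 2 members and 91 to 836 genes had an unadjusted p under 0.05. The member counts of single settings are therefore not read as a difference between genotypes. The cause of these shifts was not tested. Same-numbered libraries correlated by 0.25, 0.21, 0.09, 0.17, 0.36 and 0.09, over 0.1 in 4 of 6, so the numbers were not taken as pairs, although 9 of 12 libraries correlated best with their own number. With the replicate block, 476 genes and 0 members had an unadjusted p under 0.05, and p was 0.060 for Hspa1a and 0.077 for Hspa1b. Of the 3 chaperone-list genes with an unadjusted p under 0.05, Hsph1 and Dnajc14 stayed under it with the block in limma and Pfdn5, at 0.058, did not. Genes near the filter rest on few reads.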

Other observations

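Of the 18 immediate-early genes tested, 11 had an adjusted p under 0.05 in the limma F test of the replicate number, beside 1.7% of all genes. They included Fos with 2.34e-05 and Fosb with 9.15e-06. Elane and Mpo had adjusted p of 0.00645 and 0.00891 in the same test, and Elane was at 253 in WT replicate 6 and 270 in KO replicate 6, above every other library. Csf1r, Itgam and Lyz2 of the same marker list had adjusted p of 0.381, 0.214 and 0.548 in that F test. The summed signal of 8 erythroid markers lay between 19.8 and 103 over all libraries. What the replicate number stands for is not given in the labels.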
